A study of Mus musculus with 6 samples.

Results

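Transcription factors that pattern the neural tube and mark its classes of neurons were followed in microarray profiles of the mouse otic vesicle and periotic mesenchyme at embryonic day 11.5. The members were 36 genes given by symbol, chosen with earlier results of these data known. Of them, 35 had a probe set with that symbol on the Affymetrix Mouse Genome 430 2.0 array. Skor2 had none and was not analysed here. These 35 genes were covered by 52 of the 45101 probe sets, and 24 of the 35 passed a filter on low values and were tested, among 14170 genes tested of 18193.

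In the Mest-KO pools, Tbx1, a T-box transcription factor gene of otic epithelium and mesenchyme, was conditionally knocked out with T-Cre. T-Cre is driven from the T (brachyury) promoter, which is active in early mesoderm. The control pools also carried T-Cre and were heterozygous for the Tbx1 conditional mutation. Each of the 6 arrays, 3 per genotype, held RNA of the dissected ears of both sides from 3 embryos pooled by genotype. The study asked what changes around the ear when mesoderm lacks Tbx1.

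The hindbrain lies directly beside the otic vesicle. Its progenitors, in the ventricular zone, are ordered in bands from the roof plate to the floor plate by homeobox and basic helix-loop-helix (bHLH) genes. BMP and WNT signals from the roof set the dorsal bands, and hedgehog signal from the floor plate the ventral ones. Each band gives rise to its own neurons, which turn on a further set of LIM homeobox, Lbx, Tlx, Evx or Gata genes. The 36 genes were grouped by these textbook roles into 5 dorsal progenitor, 4 broad progenitor, 10 ventral or intermediate progenitor, 9 dorsal neuron, 5 ventral neuron and 3 motor or visceral neuron genes. Several are also made outside the neural tube, for example Isl2, Tlx3 and Phox2a in cranial ganglia and Gata2 in otic epithelium and blood vessels.

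The promoters of the genes shared a base composition that their choice did not use. RefSeq promoter windows of 300 bases (250 before to 50 after the start; GRCm38.p6) were held for 31 of the 36 genes, and not for Lbx1, Lhx5, Olig1, Skor2 and Sox3. The median ratio of observed to expected CpG was 0.788 over the 31 windows and 0.389 over 27025 genes, and 29 of the 31 lay above that all-gene median. The density of CpG nevertheless varied widely between genes that were all high in control 1 and control 3, and 3 windows are shown for that range. Skor1 (chr9:63148912-63149211, minus strand) had a ratio of 0.975, Lhx1 (chr11:84525485-84525784, minus strand) of 0.961 and Olig3 (chr10:19356289-19356588, plus strand) of 0.252. They are written 5′ to 3′ on the gene's strand, with each CpG in capitals, 46 in Skor1, 31 in Lhx1 and 4 in Olig3.
Skor1: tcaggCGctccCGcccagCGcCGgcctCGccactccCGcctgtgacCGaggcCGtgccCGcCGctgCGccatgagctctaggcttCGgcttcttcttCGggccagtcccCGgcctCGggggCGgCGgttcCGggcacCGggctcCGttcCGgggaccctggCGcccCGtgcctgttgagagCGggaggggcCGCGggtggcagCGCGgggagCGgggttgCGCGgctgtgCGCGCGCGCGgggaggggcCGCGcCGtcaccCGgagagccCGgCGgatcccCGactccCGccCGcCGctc
Lhx1: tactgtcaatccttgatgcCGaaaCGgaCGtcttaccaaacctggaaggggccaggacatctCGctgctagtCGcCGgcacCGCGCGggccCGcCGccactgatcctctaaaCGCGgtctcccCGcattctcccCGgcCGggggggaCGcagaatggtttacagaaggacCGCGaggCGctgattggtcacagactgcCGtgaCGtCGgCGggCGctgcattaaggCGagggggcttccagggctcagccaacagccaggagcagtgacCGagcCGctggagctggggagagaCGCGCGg
Olig3: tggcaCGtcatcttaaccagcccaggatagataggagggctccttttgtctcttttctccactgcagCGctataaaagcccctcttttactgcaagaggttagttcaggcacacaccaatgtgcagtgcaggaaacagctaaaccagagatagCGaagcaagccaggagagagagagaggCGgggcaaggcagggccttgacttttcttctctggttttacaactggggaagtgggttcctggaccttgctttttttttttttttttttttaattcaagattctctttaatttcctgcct

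Short motifs were then searched on both strands of these windows. CANNTG, the E-box read by bHLH factors, was in 16 of 31 windows (51.6%; 72.1% of all windows). GGGCGG, a GC box, was in 15 (48.4%; 35.9% of all), and AACAAT, a SOX core, in 6 (19.4%; 10.9% of all). TATAAA was in 5 (16.1%; 14.2% of all) and AGGTCA, a nuclear receptor site, in 1 (3.23%; 16% of all). TAATTA, a homeodomain core, was in 0 of 31, where 5.32% of all windows held it. Median GC was 65% over the 31 windows and 52.7% over all windows, and the motif counts were not adjusted for it. These matches describe the windows only.

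The arrays resembled each other, with correlations of log2 intensity across tested genes between 0.987 and 0.993, and array medians ran from 59.954 to 70.6371. The otic epithelium list (16 of 16 genes) and the periotic mesenchyme list (13 of 13) lay above background on at least 1 array. Their summed intensities were 15370 to 17830 and 34110 to 35820 in control, and 15370 to 18260 and 32360 to 35420 in Mest-KO, and of their genes only Meox1, a mesoderm homeobox gene, passed (1.15 ± 0.18, adjusted p = 0.0433). Tbx1 itself read 524.5, 567.3 and 446.7 across controls 1 to 3 and 520.5, 578.0 and 409.9 across Mest-KO pools 1 to 3, so the groups overlapped; otic epithelium makes it too, so this does not check the labels. The reference for absence of signal was a set of 27 bacterial control probe sets with no spiked target; their highest intensity, 11.1922, is called the unspiked level here.

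Control 2 stood apart from control 1 and control 3 in neural tube genes. For 11 of the 24 tested genes, control 1 and control 3 each read over 2 times control 2. These were the dorsal progenitor genes Olig3 and Ptf1a, the broad progenitor genes Neurog2, Sox1 and Sox3, the dorsal neuron genes Skor1, Lbx1, Lhx1 and Lhx9, the ventral neuron gene Evx1, and Pax6. The share of all genes tested with such a gap was not counted. Control 1 and control 3 were the highest 2 of the 6 arrays for 16 of the 24 genes, and for 9.25% of all genes tested. Control 2 was not above all Mest-KO arrays for 15 of the 24, a smaller share than the 78.7% of all genes tested. It thus exceeded all Mest-KO arrays more often in the 24 than in genes at large. With control 2 as the only control, the log2 differences of those 11 genes ran from -1.92 (Skor1) to 0.32 (Pax6), and those of Pax6 and Olig3 (0.03) were no longer negative. That fit has a single control array, so its error comes from the Mest-KO arrays and the control is assumed to vary like them. The Y-linked genes split the controls in the same way. The median of 3 such genes, each relative to its mean over the 6 arrays on the log2 scale, was -0.55, 0.48 and -0.53 across controls 1 to 3 and 0.37, 0.24 and -0.05 across Mest-KO pools 1 to 3. Xist, the X-inactivation RNA of female cells, was at 0.42, -0.29 and 0.41 across controls 1 to 3 and -0.09, -0.07 and -0.37 across Mest-KO pools 1 to 3 on the same scale. The part of the pools' sex mix in the differences was not tested. In a fit that added the Y-linked mean per array, the median log2 difference of the 24 genes was -0.35 in place of -0.52. In that fit the dorsal neuron median was -0.68 in place of -1.05, the dorsal progenitor median -0.48 in place of -0.84, Olig3 -0.59 in place of -1.19 and Pax6 -0.32 in place of -0.92. Skor1 kept its call there (-2.71, limma adjusted p = 0.00385). The Y-linked genes set control 2 apart from control 1 and control 3, so genes with that order of arrays tend to shrink in this fit whatever the reason. With these 6 arrays, sex mix and neural tube content cannot be told apart. In such bulk tissue, fewer neural cells and less RNA per cell cannot be told apart.

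**Figure D1:**
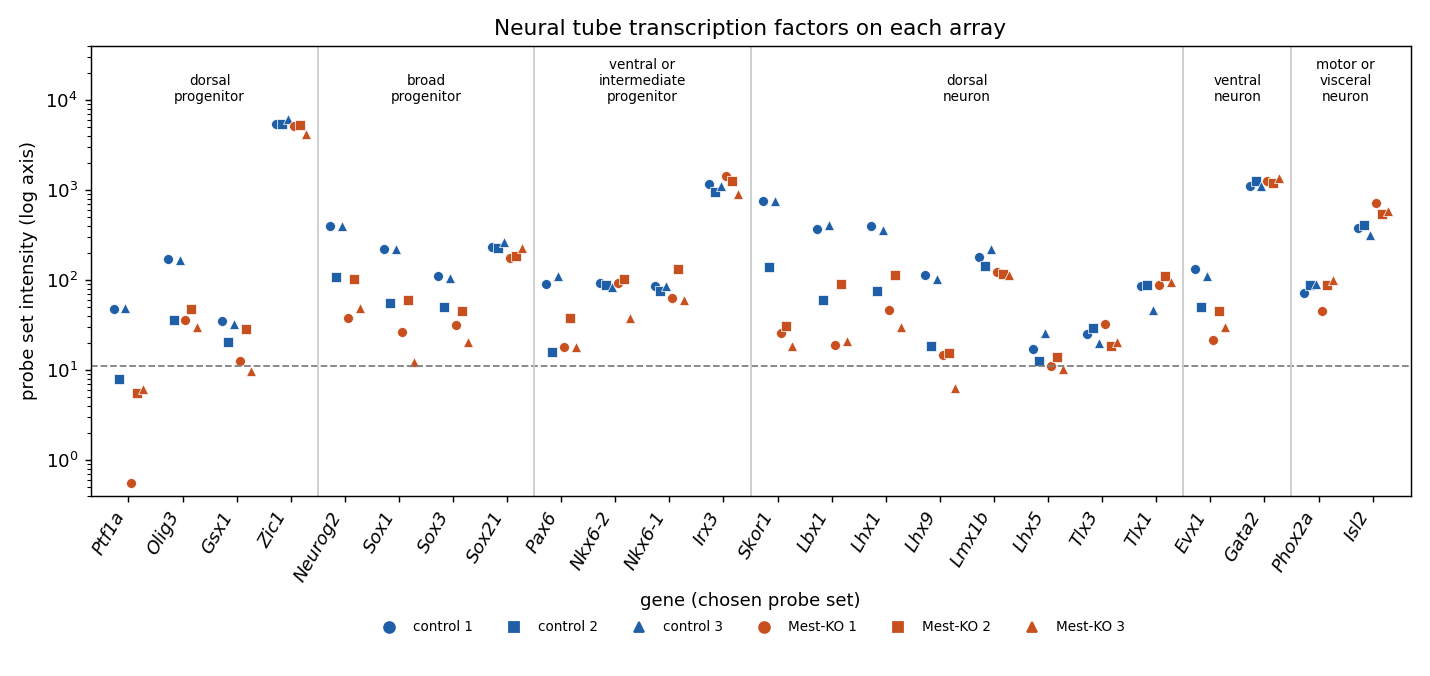
Probe set intensity (log axis) of the 24 tested genes on each of 6 arrays, grouped by role; blue is control and orange Mest-KO, and circles, squares and triangles are pools 1, 2 and 3. The dashed line is the unspiked level of 11.1922. For Skor1, Lbx1, Lhx1, Neurog2 and Olig3 the blue circle and triangle stand above the other 4 arrays.

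Across genotypes, most dorsal and broad neural tube genes read lower in Mest-KO, and Skor1 alone passed the adjusted threshold. Of the ventral or intermediate genes tested, Evx1 (-1.19) and Pax6 (-0.92) were also lower. Nkx6-1, Nkx6-2, Irx3 and Gata2 ran from -0.24 to 0.13. Of the 24 genes tested, 20 had a negative log2 difference (46.2% of all genes tested did) and the median was -0.52 (0.01 over all genes). The median was -0.24 over the 15 genes above the 50th percentile, -0.33 with the mean of all probe sets and -0.34 with pseudocount 64. With limma's adjusted p, 1 passed and it was lower (0.0635% of all genes), and 0 were called higher (0.0847%). At an unadjusted p under 0.05, 12 were lower (3.24% of all genes) and 1 higher (5.73%). The genes were chosen with earlier results of these data known, so these counts beside the all-gene shares are not an independent test of the list. The filter used the mean over all 6 arrays, so a gene high in a few arrays could enter through them, and the counts over the 24 describe those genes only. Without a filter the median over the 35 genes was -0.23, and 11 were lower at an unadjusted p under 0.05.

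**Figure D2:**
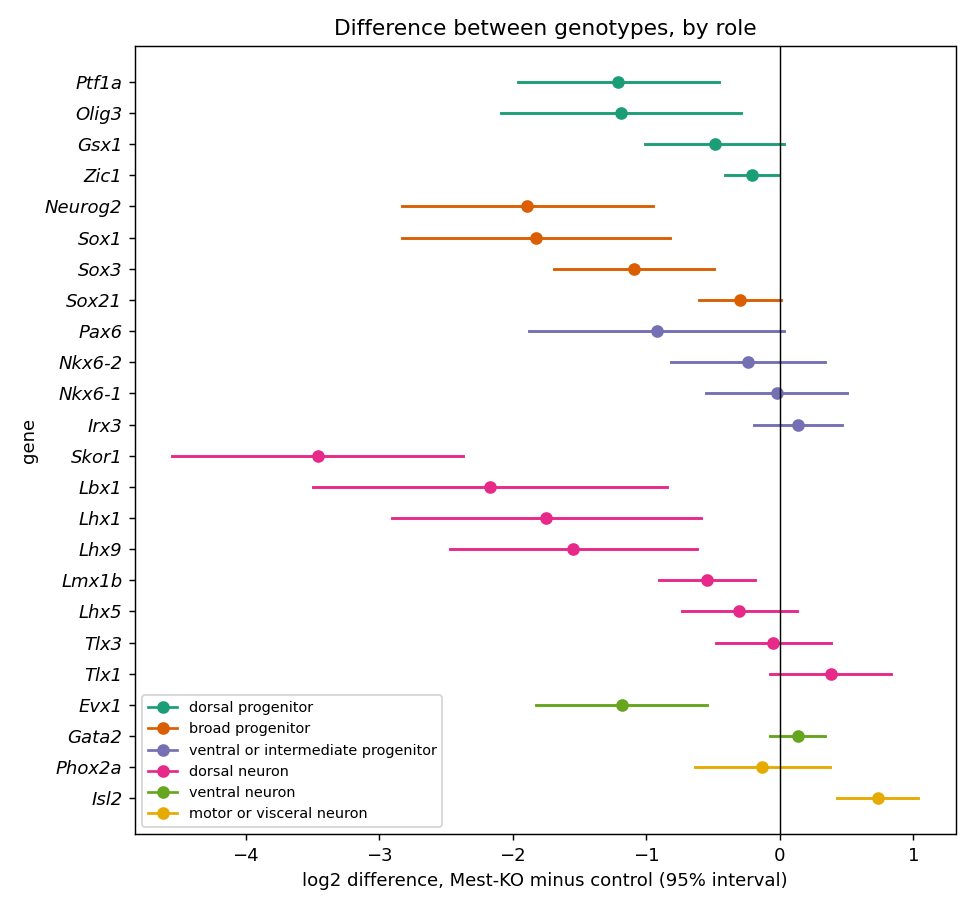
Log2 difference, Mest-KO minus control, of the 24 tested genes (points) with the 95% interval of the limma fit (lines), coloured by role. Skor1, at -3.46, is the farthest from 0. The intervals of Nkx6-1, Nkx6-2, Irx3 and Pax6 span 0, as do those of Gsx1, Sox21, Lhx5, Tlx1, Tlx3, Gata2 and Phox2a.

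Among the dorsal progenitor genes, 4 of 5 were tested, with differences from -1.21 to -0.21 and adjusted p from 0.263 to 0.576. Ptf1a, a bHLH factor that directs progenitors to an inhibitory fate, read 47.6, 7.96 and 48.4 across controls 1 to 3 and 0.551, 5.60 and 6.16 across Mest-KO pools 1 to 3. Only control 1 and control 3 were above the unspiked level. The groups did not overlap, but control 2 and all Mest-KO arrays lay below that level. With Mest-KO taken at that level and control 2 left at its own value, the geometric mean of control was 2.36-fold higher. That value rests on control 1 and control 3 and is not a lower bound. The fitted difference was -1.21 ± 0.34 (SE, with limma adjusted p = 0.263). Olig3, a bHLH factor of the most dorsal progenitors, read 170.0, 36.1 and 168.4 across controls 1 to 3 and 35.7, 47.5 and 29.8 across Mest-KO pools 1 to 3. Control 2 lay within the Mest-KO arrays, so the groups overlapped (-1.19 ± 0.41, adjusted p = 0.388). Gsx1, a homeobox gene of the intermediate dorsal bands, differed by -0.49 ± 0.24, again with overlap. Its relative Gsx2 was above the unspiked level on 1 array, control 3, at 22.4, and was not tested.

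Zic1, a zinc finger gene of the dorsal neural tube and also of mesenchyme around it, gave another picture. It read 5423, 5360 and 6191 across controls 1 to 3 and 5168, 5325 and 4226 across Mest-KO pools 1 to 3. The groups did not overlap, but the difference was small (-0.21 ± 0.09, adjusted p = 0.549), and control 1 was only 1.01 times control 2. A second probe set differed by -0.22 ± 0.20 with overlapping groups.

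The 4 broad progenitor genes were all tested and all had negative differences. Neurog2, a bHLH factor that starts neuron formation and is also made in epibranchial placodes, read 395.4, 109.3 and 393.9 across controls 1 to 3 and 37.6, 103.0 and 48.9 across Mest-KO pools 1 to 3. Every control array was above every Mest-KO array, though control 2 and Mest-KO 2 were close, at a ratio of 0.942 (Mest-KO 2 over control 2). The difference was -1.89 ± 0.43 (adjusted p = 0.167), and it was -0.75 with control 2 as the only control. Sox1, a SOXB1 factor that keeps neural progenitors undifferentiated, read 221.5, 55.8 and 223.4 across controls 1 to 3 and 26.4, 59.9 and 12.4 across Mest-KO pools 1 to 3. Mest-KO 2 exceeded control 2, so the groups overlapped (-1.83 ± 0.45, adjusted p = 0.204). Sox3, of the same family, read 112.3, 49.97 and 105.4 across controls 1 to 3 and 31.5, 45.2 and 20.5 across Mest-KO pools 1 to 3, without overlap (-1.09 ± 0.27, adjusted p = 0.204).

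Sox21, a SOXB2 factor that counteracts the SOXB1 factors, was steadier. It read 234.8, 228.2 and 262.5 across controls 1 to 3 and 176.1, 182.6 and 224.9 across Mest-KO pools 1 to 3, which did not overlap by a narrow margin (-0.30 ± 0.14, adjusted p = 0.565). A second, dimmer probe set differed by 0.05 ± 0.18, in the opposite direction. Control 1 was 1.03 times control 2 for Sox21, against 3.62 times for Neurog2, 3.97 times for Sox1 and 2.25 times for Sox3.

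The ventral or intermediate progenitor genes were mostly near background. Of 10, 4 were tested, with differences from -0.92 to 0.13 and adjusted p from 0.569 to 0.987. Irx3, an Iroquois gene of intermediate progenitors that is also made in otic epithelium, read 1160, 963.4 and 1116 across controls 1 to 3 and 1424, 1268 and 914.4 across Mest-KO pools 1 to 3, with overlapping groups (0.13 ± 0.15). Pax6, a paired-box gene of intermediate and ventral progenitors, followed the dorsal genes. It read 89.7, 15.8 and 110.2 across controls 1 to 3 and 18.1, 38.0 and 17.9 across Mest-KO pools 1 to 3, so that control 2 was the lowest array of the 6 (-0.92 ± 0.43, adjusted p = 0.569). Another Pax6 probe set above the filter did not show this order and differed by -0.18 ± 0.24. It read 28.6, 12.8 and 11.6 across controls 1 to 3 and 6.49, 15.4 and 18.9 across Mest-KO pools 1 to 3.

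The ventral determinants Nkx6-1 and Nkx6-2, homeobox genes induced by hedgehog signal, did not follow that order of arrays. Nkx6-1 read 85.0, 75.8 and 86.1 across controls 1 to 3 and 63.3, 134.0 and 59.8 across Mest-KO pools 1 to 3, so the highest array was Mest-KO 2. Nkx6-2 differed by -0.24 ± 0.26 and Nkx6-1 by -0.02 ± 0.24, with 95% intervals from -0.81 to 0.34 and from -0.55 to 0.51. The remaining 6, Nkx2-2, Olig1, Olig2, Dbx1, Dbx2 and Neurog3, were not tested. They are genes of the ventral and middle bands, and Olig2 and Dbx2 were never above the unspiked level.

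The dorsal neuron genes included Skor1, with 8 tested, 7 of them with negative differences from -3.46 to -0.05. Skor1, a corepressor that works with Lbx1 in inhibitory dorsal interneurons, read 746.3, 138.0 and 749.8 across controls 1 to 3 and 25.6, 30.5 and 18.7 across Mest-KO pools 1 to 3. It fell by 3.46 ± 0.49 on the log2 scale (adjusted p = 0.0256), and every control array was above every Mest-KO array. Control 1 and control 3 were 5.41 and 5.43 times control 2. The call was lost without control 1 (adjusted p = 0.0791), without control 3 (0.119) and without Mest-KO 1, 2 or 3 (0.15, 0.0725 and 0.0664). With control 2 as the only control the difference was -1.92, which is not comparable as a test because that arm holds 1 array. It kept the call without control 2 (-4.23 ± 0.18, adjusted p = 1.64e-06). A second Skor1 probe set never exceeded the unspiked level.

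Lbx1, a homeobox gene that sets the fate of the intermediate dorsal interneurons, read 373.6, 60.6 and 409.1 across controls 1 to 3 and 19.0, 91.4 and 21.1 across Mest-KO pools 1 to 3. Mest-KO 2 exceeded control 2 at 1.51 times its level, so the groups overlapped (-2.17 ± 0.60, adjusted p = 0.250). Lhx1, a LIM homeobox gene of several inhibitory interneuron classes, read 394.9, 75.1 and 360.0 across controls 1 to 3 and 46.3, 114.2 and 29.7 across Mest-KO pools 1 to 3, with the same order of control 2 and Mest-KO 2 (-1.75 ± 0.52, adjusted p = 0.289). Skor1 thus differed from Lbx1 and Lhx1 in where Mest-KO 2 stood. Its Mest-KO 2 value was 0.221 times that of control 2, where Lbx1 and Lhx1 had 1.51 and 1.52 times. A test of that contrast between genes was not made.

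Lhx9, a LIM homeobox gene of commissural neurons from the most dorsal band, read 114.2, 18.4 and 103.4 across controls 1 to 3 and 14.5, 15.3 and 6.36 across Mest-KO pools 1 to 3. The groups did not overlap, but control 2 lay close to Mest-KO 1 and 2 (-1.55 ± 0.42, adjusted p = 0.231). Lmx1b, a LIM homeobox gene of excitatory dorsal interneurons and also of periotic and limb mesenchyme, read 180.4, 142.0 and 220.6 across controls 1 to 3 and 122.4, 116.5 and 112.6 across Mest-KO pools 1 to 3. Its controls differed less than those of Lhx9, control 1 being 1.27 times control 2, and the groups did not overlap (-0.55 ± 0.16, adjusted p = 0.289). Lhx5, a close relative of Lhx1, was dim and differed by -0.30 ± 0.20.

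Tlx1 and Tlx3, homeobox genes of excitatory dorsal neurons and of cranial sensory neurons, did not share this order. Tlx1 read 86.4, 87.0 and 46.8 across controls 1 to 3 and 88.7, 110.2 and 94.5 across Mest-KO pools 1 to 3. The groups did not overlap and Mest-KO was the higher (0.38 ± 0.21, adjusted p = 0.629), but without control 3, its lowest array, the difference was 0.14. Tlx3 differed by -0.05 ± 0.20 with overlap. Tlx1 and Lbx1 are next to each other among protein-coding genes in RefSeq (GRCm38.p6), and their fitted differences, 0.38 and -2.17, had opposite signs.

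Of the 5 ventral neuron genes, 2 were tested. Evx1, a homeobox gene of commissural neurons of the most dorsal ventral class, read 133.4, 50.4 and 112.0 across controls 1 to 3 and 21.7, 45.8 and 30.4 across Mest-KO pools 1 to 3. The groups did not overlap, and control 2 and Mest-KO 2 were close (-1.19 ± 0.29, adjusted p = 0.200). Gata2, a zinc finger gene of an inhibitory ventral class, read 1098, 1258 and 1116 across controls 1 to 3 and 1250, 1204 and 1359 across Mest-KO pools 1 to 3, with overlap (0.13 ± 0.09, adjusted p = 0.716). A second Gata2 probe set differed by -0.01 ± 0.08. Evx2, the paralogue of Evx1, and En1 and Sox14, markers of other ventral classes, were not tested; Sox14 was never above the unspiked level, and En1 and Evx2 were above it on 1 array each.

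Isl2 stood out among the motor or visceral neuron genes by being higher in Mest-KO. This LIM homeobox gene of motor neurons and of cranial sensory neurons read 375.4, 408.0 and 317.5 across controls 1 to 3 and 723.9, 548.3 and 591.9 across Mest-KO pools 1 to 3. Every Mest-KO array was above every control array (0.73 ± 0.14, 95% interval 0.43 to 1.04), and the difference did not pass (adjusted p = 0.0926). Mnx1, the somatic motor neuron homeobox gene, was never above the unspiked level. Phox2a, a homeobox gene of visceral motor and noradrenergic neurons and of cranial ganglia, differed by -0.13 ± 0.23 with overlap. Beside Isl2, the list of cranial ganglion neuron genes gave differences of the same sign. All 12 tested had positive differences (7622 of 14170 genes tested did), with a median of 0.45. Of these, 2 passed (0.0847% of all genes were called higher), Pou4f1 (0.59 ± 0.08, adjusted p = 0.0256) and Neurog1 (1.15 ± 0.19, adjusted p = 0.0478). Summed intensities were 12460 to 13560 in control and 16500 to 17590 in Mest-KO. Other members also made in cranial ganglia or placodes were mixed, with Tlx1 at 0.38, Tlx3 at -0.05, Phox2a at -0.13 and Neurog2 at -1.89. The part of ganglion tissue in the Isl2 value was not tested.

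Over the 24 genes, the groups did not overlap for 9 with lower Mest-KO (5.22% of all genes) and for 2 with higher Mest-KO, Isl2 and Tlx1 (9.32% of all genes). The exact permutation test of 3 arrays against 3 gives such a gene p = 0.1, the smallest this design allows. Among the 9, the separation of Ptf1a rests on control 2 and Mest-KO values below the unspiked level. By role, the medians were -1.46 for broad progenitors, -1.05 for dorsal neurons, -0.84 for dorsal progenitors, -0.53 for ventral neurons (2 genes), -0.13 for ventral or intermediate progenitors and 0.30 for motor or visceral neurons (2 genes). A difference between roles was not tested. With control 2 as the only control, 17 of the 24 differences were negative and the median was -0.22 (0.02 over all genes). In that fit 1 gene, Skor1, lay below -1. With all controls 10 did, against 0.353% of all genes. The shares of all genes in the fit with 1 control array were not counted.

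**Figure D3:**
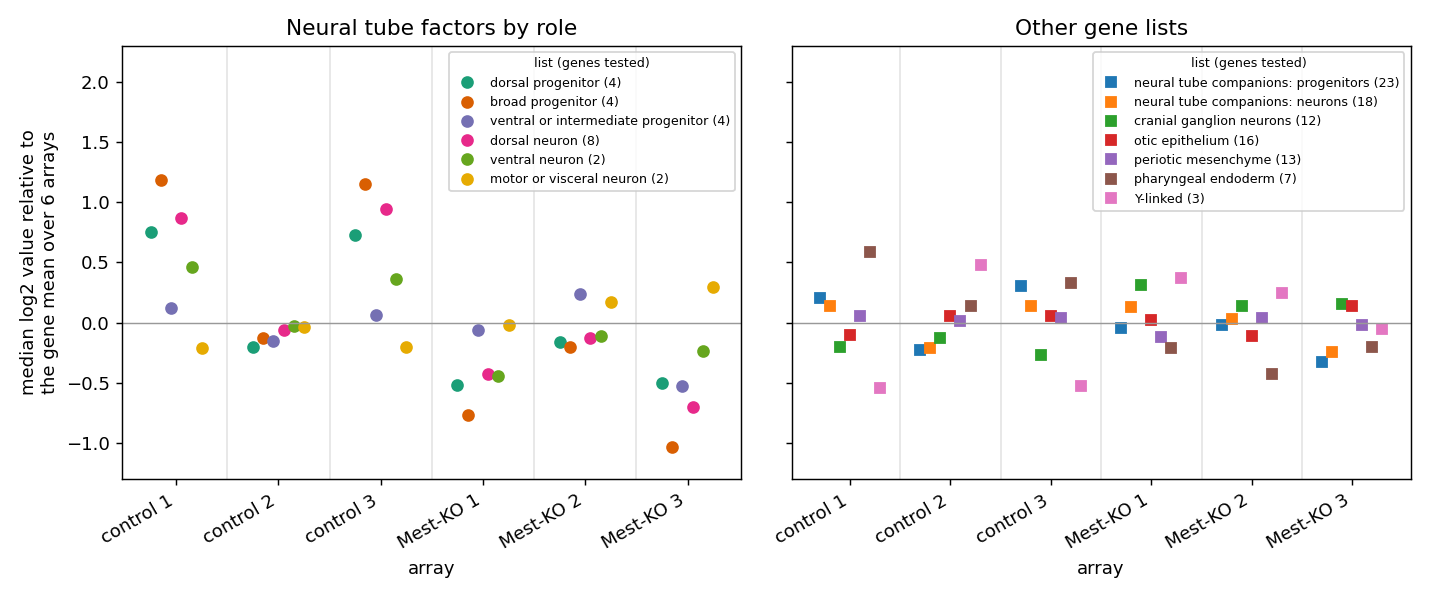
Median over the tested genes of each list, relative to each gene's mean over 6 arrays (log2 scale), on every array; the left panel shows the roles and the right panel other lists, with the number of genes in brackets. Broad progenitor genes are at 1.19 and 1.16 in control 1 and 3 and at -0.13 in control 2, and the pharyngeal endoderm list is also highest in control 1 and 3.

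Mest-KO arrays differed among themselves in the same genes. Mest-KO 2 was the highest of the 3 Mest-KO arrays for 16 of the 24 genes. The share of all genes tested with that order was not counted, so this describes the 24 only. The dorsal neuron median was -0.43, -0.13 and -0.71 across Mest-KO pools 1 to 3 and 0.87, -0.07 and 0.94 across controls 1 to 3. The broad progenitor median was -0.77, -0.20 and -1.03 in Mest-KO and 1.19, -0.13 and 1.16 in control. For these roles control 2 and Mest-KO 2 were nearer to each other than either was to any other array. The ventral or intermediate progenitor median was 0.23 in Mest-KO 2, its highest, and -0.53 in Mest-KO 3, its lowest.

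Other genes of the neural tube showed the same order of arrays in part. Of 29 further progenitor genes, 23 were tested and 17 had negative differences (46.2% of all genes), with a median of -0.22. At an unadjusted p under 0.05, 3 were lower (3.24% of all genes), and 0 passed the adjusted threshold. Control 1 and control 3 were the highest for 13 of the 23 (9.25% of all genes tested). Msx3, a homeobox gene restricted to the dorsal neural tube, read 338.6, 64.5 and 311.4 across controls 1 to 3 and 17.5, 57.3 and 21.8 across Mest-KO pools 1 to 3 (-2.22 ± 0.49, adjusted p = 0.165). Rfx4, a neural progenitor factor, differed by -1.67 ± 0.45, Pax7, of dorsal progenitors, by -1.21 ± 0.39, and Atoh1, of the most dorsal band and of otic hair cell precursors, by -0.69 ± 0.32, all with overlapping groups. Fabp7, a radial glia and Schwann precursor gene, and Zic2 differed by 0.04 ± 0.13 and -0.12 ± 0.09. The summed progenitor list ran from 8653 to 11880 in control and 8510 to 10650 in Mest-KO.

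Of 27 further neuron genes, 18 were tested, 10 with negative (46.2% of all genes) and 8 with positive differences (median -0.06), and 0 passed. At an unadjusted p under 0.05, 5 were lower (3.24% of all genes) and 4 higher (5.73%). Robo3, a guidance receptor of commissural axons, read 286.9, 45.5 and 405.2 across controls 1 to 3 and 7.13, 101.6 and 1.19 across Mest-KO pools 1 to 3 (-2.46 ± 0.75, adjusted p = 0.305). Mest-KO 1 and 3 were below the unspiked level, and Mest-KO 2 was above control 2. Gad1 (-0.96 ± 0.30) and Gad2 (-1.56 ± 0.39), which encode the enzymes that make the inhibitory transmitter GABA, and Barhl2 (-1.03 ± 0.31), of dorsal commissural neurons, also overlapped. Of the 18, the groups did not overlap for 2, both higher in Mest-KO, Nhlh1 (0.29 ± 0.10) and Foxd3 (0.41 ± 0.14). That count is near the share of all genes with such groups, 9.32%. Slc17a6 was also higher (0.37 ± 0.14), with overlap. Gata3 was lower (-0.62 ± 0.21), with overlap, but control 2 was its highest array. Control 1 and control 3 were the highest arrays for 6 of the 18 (9.25% of all genes tested). Foxp2 and Nhlh2 differed by 0.03 ± 0.12 and -0.10 ± 0.15.

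The pharyngeal endoderm list was also lower in Mest-KO. Its median was 0.59, 0.13 and 0.33 across controls 1 to 3 and -0.21, -0.43 and -0.20 across Mest-KO pools 1 to 3, with 8 of 9 genes above the unspiked level on some array. Its summed intensity was 4494 to 5223 in control and 3371 to 3668 in Mest-KO. Of 7 tested genes, 6 had negative differences (46.2% of all genes tested did). All 3 Mest-KO arrays were below control 2 in this list. Foxa1, a forkhead gene of endoderm and floor plate, passed (-1.34 ± 0.17, adjusted p = 0.0191), where 0.0635% of all genes were called lower. The part of the amount of endoderm or neural tube dissected in these values was not tested. The endothelial list, whose median was between -0.17 and 0.14 on every array, and the otic epithelium list, between -0.12 and 0.14, showed no such order. The erythroid list differed among the Mest-KO arrays, with medians of 0.43, -0.06 and -0.67 in pools 1, 2 and 3 against 0.01 to 0.21 in the controls. All 7 of its tested genes had negative differences (median -0.19; 46.2% of all genes tested were negative), and its part in the values of the 24 genes was not tested.

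Probe sets other than the chosen one were also read. Of the 35 genes, 12 had several, which made 17 further probe sets, and 9 of these passed the filter, 8 with negative differences. Lhx9 had 3 besides its chosen one, at -1.75 ± 0.56, -1.03 ± 0.43 and -0.68 ± 0.26, and control 1 and control 3 were the highest arrays on each. A second probe set of Lhx1 differed by -1.04 ± 0.40 and one of Lbx1 by -0.51 ± 0.55. That Lbx1 probe set read 74.2, 2.02 and 58.2 across controls 1 to 3 and 16.9, 32.4 and 10.1 across Mest-KO pools 1 to 3, so control 2 fell below all Mest-KO arrays.

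**Figure D4:**
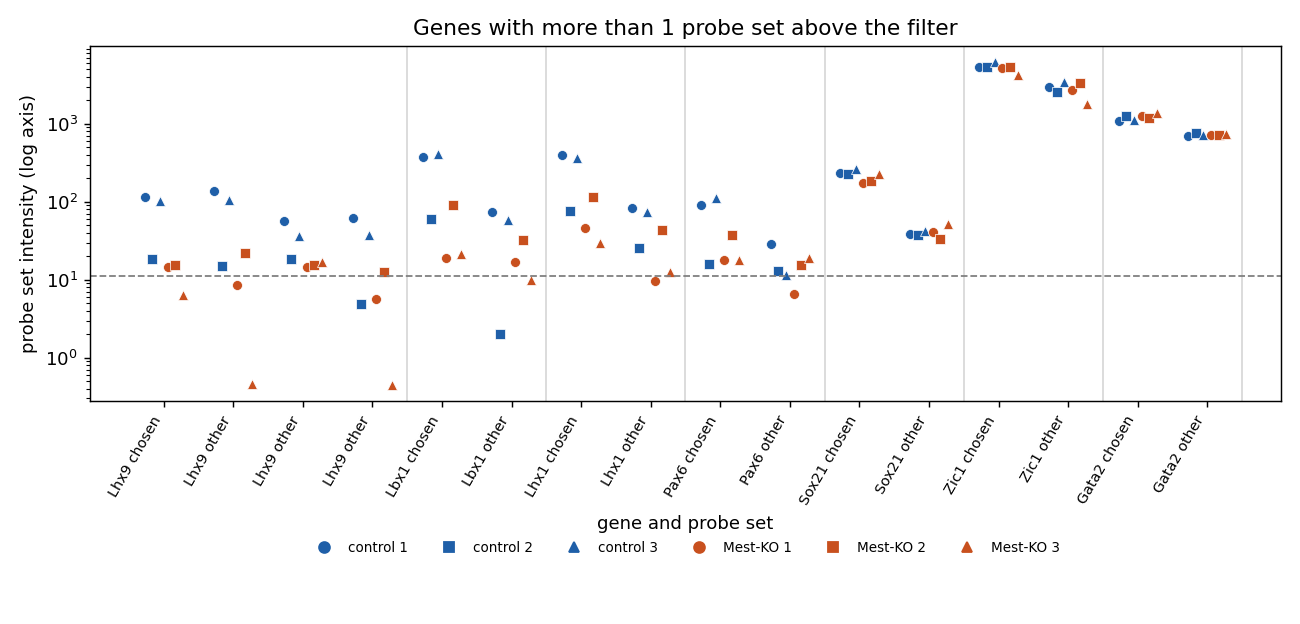
Intensity (log axis) on each array of every probe set above the filter for the 7 genes with more than 1; colours and shapes mark genotype and pool, and the dashed line is the unspiked level of 11.1922. The 4 Lhx9 probe sets all have the blue circle and triangle (control 1 and control 3) above the other arrays, while the Zic1 and Gata2 probe sets show no such gap.

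The 11 genes that were not tested had intensities from 0.117 to 22.4. Of these, 4 (Olig2, Dbx2, Sox14 and Mnx1) were never above the unspiked level, and the other 7 were above it on 1 or 2 arrays. Olig1 and Olig2, which are neighbours in RefSeq, were both among the 11, while Olig3, which lies elsewhere, was not. Evx2, next to Hoxd13, exceeded the unspiked level on Mest-KO 3 alone, at 11.5, while Evx1, next to Hoxa13, was above the unspiked level on all 6.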

How the data were processed

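Total RNA (300 ng per array) from 6 pools of 3 embryos was hybridised to 1-colour arrays. The deposited values were linear intensities; Affymetrix Expression Console 1.1 is named per the submitters' processing notes, and how probes were summarized is not given in the sources used here. After 2% of probe sets at each end were trimmed, each array had a mean of 500.002, so a shift shared by most genes would not show, and depth does not apply: the number of arrays limits precision. Groups and replicate numbers came from the titles, which call the pools biological replicates.

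The 64 control probe sets were left out; 34945 probe sets had 1 gene symbol, 932 had several genes and 9160 were not listed in the platform annotation. Looking up Entrez IDs in RefSeq changed 0 symbols, and 204 IDs were not found. Intensities were taken as log2(value + 16), which understates changes of dim genes. The brightest probe set by mean stood for a gene, and genes whose mean was above the 30th percentile (an intensity of 13.26) were tested. Genotype was fitted alone with limma 3.58.1 (R 4.3.3; eBayes with trend, two-sided, Benjamini-Hochberg over 14170 genes, threshold 0.05). Errors are SE of that fit. Other probe sets were read from a fit over all probe sets. On data simulated for the 14170 genes of Mest-KO against control, 23 of 67 genes changed 1.5-fold, 53 of 67 changed 2-fold and 66 of 66 changed 4-fold were called, and 6 of 148 calls (4.05%) were false. The changed genes were drawn at random from all tested genes, with independent noise. These rates therefore do not carry over to the neural tube genes whose controls were split. Lbx1, at -2.17 ± 0.60, was not called (limma adjusted p = 0.250).

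The members, roles and lists were chosen with earlier results of these data known. Named array by array were genes past the threshold, genes without overlap, the largest difference and the highest mean in each role, and the 10 smallest p; from the further neural tube lists, the 4 smallest p and 2 highest means. Olig3, Nkx6-1 and the second Lbx1 and Pax6 probe sets were given array by array after their values were seen. Nhlh1, Foxd3, Slc17a6 and Gata3 were also named after their values were seen. Alternatives were quantile normalization, median centring, other filters and pseudocounts, the mean of all probe sets, eBayes without trend, array weights, the replicate block, the Y-linked covariate and arrays left out. Promoter windows came from RefSeq, the most 5′ window of each gene.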

Additional observations from a re-analysis of the deposited data

How the results depend on the processing

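Skor1 kept its sign under all 18 alternatives (-4.23 to -1.75) and its call under 8 of them. It was lost without a filter (adjusted p = 0.151), with pseudocount 64 (0.0656), with the mean of all probe sets (0.121) and in eBayes without trend (0.153). Of all genes, 21 passed (12 higher, 9 lower) against 78 (22 and 56) with median centring, 2 (0 and 2) without a filter, 6 (1 and 5) with the mean of all probe sets, 1 (0 and 1) without trend and 5 (3 and 2) with control 2 as the only control; with array weights 15 were lower. Leaving out 1 array gave 2 to 82 (0 to 21 higher, 2 to 61 lower), 82 without control 2. Of the 24 genes, 6 passed with median centring, 0 without a filter, with pseudocount 64, with the mean of all probe sets, without trend or with control 2 alone, and 0 to 12 with 1 array left out, 12 without control 2; the cause was not tested. At an unadjusted p under 0.05, 7 were lower with the filter at the 50th percentile and 1 with control 2 alone. Counts with control 2 alone take their error from the Mest-KO arrays, the lone control being assumed to vary like them, and do not compare with the others as tests.

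With control 2 alone the median of the 24 was -0.216, and by role -0.575 (broad progenitor), -0.279 (dorsal neuron), -0.157 (dorsal progenitor), -0.234 (ventral neuron) and 0.182 (ventral or intermediate progenitor). Fewer genes tested at the 50th percentile gave -1.748 for dorsal neurons (5 genes). Dorsal progenitors were then Zic1 alone (1 gene, -0.209) and ventral neurons Gata2 alone (1 gene, 0.134), so these values are not role medians. No filter gave 0.057 for ventral neurons and -0.011 for motor or visceral neurons. Pseudocount 64 gave -0.358 for dorsal progenitors and -0.296 for ventral neurons, and the mean of all probe sets -0.785 for broad progenitors. Ventral or intermediate progenitors ran from -0.396 to 0.135 with 1 array left out.

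Same-numbered arrays did not deviate together (r = -0.0281, -0.109 and -0.154), so the numbers were not used as pairs. The replicate block gave 9 calls (3 higher), a median of -0.518 over the 24 genes, 1 of them past the threshold (Skor1, adjusted p = 0.0321) and 11 lower at an unadjusted p under 0.05. The median of all genes was 0.0128, and -0.0523 with median centring. With 3 arrays per genotype, genes near the unspiked level have no precise fold change.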

Other observations

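Lhx4, Tbx20 and Sim1, neuron genes outside the 36, read highest in Mest-KO 2 and were singled out after their values were seen. Lhx4, a LIM homeobox gene of motor neurons and ventral interneurons, read 46.9, 17.1 and 22.9 in control 1, 2 and 3, against 100.3, 196.1 and 24.1 in Mest-KO 1, 2 and 3 (1.20 ± 0.48, adjusted p = 0.483). Tbx20, a T-box gene of visceral motor neurons and of heart, read 41.6, 34.1 and 53.1 against 131.8, 159.9 and 26.7 (0.83 ± 0.42, adjusted p = 0.606). Sim1, a gene of ventral interneurons, read 82.6, 35.6 and 77.0 against 75.3, 188.0 and 18.0 (0.14 ± 0.51, adjusted p = 0.961). Mest-KO 2 was the highest array for Lhx4, Tbx20, Sim1 and Nkx6-1, and the groups overlapped for each. In Mest-KO 3 the values of Tbx20 and Sim1 were the lowest of the 6 arrays and that of Lhx4 lay within the controls. None passed the limma test.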
